A study of Mus musculus with 3 samples.

Results

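The genes described here are 10 genes that encode Tudor domain proteins, most of them known from male germ cell RNA granules. They were chosen by their symbols in the platform annotation of the array. They are Tdrd1, Tdrd3, Tdrd5, Tdrd6, Tdrd7, Tdrd9, Tdrd12, Tdrkh, Rnf17 and Stk31, and all 10 were found among the 19938 genes that the annotation names. Each is measured by 1 probe set that names no other gene. They lie on 9 autosomes of assembly GRCm38.p6, with Tdrd3 and Rnf17 both on chromosome 14. RNA was measured on 3 replicate single-channel Affymetrix Mouse Gene 1.0 ST arrays. The samples are labelled as spermatids of the testes of wild type male BALB/c mice aged 30 days, and they form 1 group with no treatment and no control. The cells came from testis tubules that were cut, homogenised and passed through a cell strainer, and the labels describe no sort for a cell type. Whether the replicates came from separate animals is not stated, so their spread may be technical. Each value is a log2 level from Robust Multichip Average (RMA), and each error is the SD over the 3 arrays.

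A Tudor domain is a small fold that binds methylated arginine or lysine. In germ cells, Tudor proteins bind the methylated arginines of Piwi proteins, the partners of piRNAs, which are small RNAs that silence transposons and, in meiosis and after it, also act on other transcripts. Many of these proteins lie in the intermitochondrial cement of spermatocytes and in the chromatoid body, a cloud of RNA and protein beside the nucleus of round spermatids.

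The sequences before the start sites of the members are shown first, because MYBL1, a transcription factor of pachytene spermatocytes, is known to bind near piRNA pathway genes in mouse testis and its gene was above background on these arrays. That gene, Mybl1, lay at 11.27, 11.17 and 11.31 in replicates 1, 2 and 3. RefSeq promoter windows of assembly GRCm38.p6, with 250 bases before the start and 50 from it on, were at hand for 8 of the 10 members, in 14 windows. The letters AACGG, a MYB core, stood on either strand in windows of 4 of the 8 genes, against 19.6% of the 27025 genes in the table. Counted by window it was 5 of 14, against 17.4% of all 32851 windows. The windows of a gene can overlap, and GC content differed, from 45.0% to 76.0% in the members' windows against a median of 52.7% in all windows. The longer letters AACNGTT, which contain AACGG where they read AACGGTT, were in 0 of the 14 windows and in 4.45% of all windows. In each of the 4 genes AACGG lay close to the start, with its first base 9 bases before it in Tdrd5, 5 in Tdrd7, 16 in Tdrd12 and 7 in Tdrd9. A place no more than 60 bases before the start, or after it, was held by 8.49% of all genes, a limit chosen after the letters were seen. The 60 bases before these starts follow in the direction of the gene, with AACGG or its reverse complement in capitals. For Tdrd7 and Tdrd12, which have several start sites, the start shown is the most upstream that holds the letters. The other Tdrd7 windows hold no AACGG. From the other Tdrd12 start, the letters begin 45 bases before it and again 20 bases after it.
Tdrd5 (chr1:156303349-156303408, minus strand): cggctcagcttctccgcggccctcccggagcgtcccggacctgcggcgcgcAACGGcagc
Tdrd7 (chr4:45972771-45972830, plus strand): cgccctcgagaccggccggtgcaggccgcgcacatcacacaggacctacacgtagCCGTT
Tdrd12 (chr7:35537745-35537804, minus strand): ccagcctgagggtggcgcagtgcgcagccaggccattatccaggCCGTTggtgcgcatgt
Tdrd9 (chr12:111971499-111971558, plus strand): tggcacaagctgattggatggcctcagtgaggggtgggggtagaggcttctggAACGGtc
These matches describe letters and not binding, and no match says only that the letters are not in the window.

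Tdrkh has no AACGG in its window but holds another promoter motif 5 times, which is why it is shown as a contrast. The CCAAT box, a common promoter element, was looked for after the letters had been seen. It was in windows of 2 of the 8 members, Tdrkh and Tdrd9, against 41.1% of all genes. A window with 5 or more copies on either strand made up 0.271% of all windows. In Tdrkh all 5 copies read ATTGG, the reverse complement, and begin 230, 125, 74, 51 and 24 bases before the start. The 250 bases before the start, with these copies in capitals, are as follows.
Tdrkh (chr3:94412994-94413243, plus strand): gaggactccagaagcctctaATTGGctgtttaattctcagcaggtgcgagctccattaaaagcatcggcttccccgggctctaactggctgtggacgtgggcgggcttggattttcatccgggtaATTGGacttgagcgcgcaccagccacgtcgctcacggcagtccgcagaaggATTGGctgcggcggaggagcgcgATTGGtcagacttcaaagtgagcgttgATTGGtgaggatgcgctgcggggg

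All 10 Tudor genes lay above background on all 3 arrays, against 37.6% of all named genes. Background was set at 7.98, the 95th percentile of 211 vomeronasal receptor and hair keratin associated protein genes, which are not expected in testis. In limma, with a one-sided test adjusted by Benjamini-Hochberg over all named genes at 0.05, all 10 were called above it, against 36.6% of all named genes. The highest of the background genes was at 9.885, above the means of Tdrd9, Stk31, Tdrkh and Tdrd3. The median of the 10 mean levels was 10.18, against 7.45 for all named genes, and the lowest member stood at the 81.3rd percentile of them. In bulk RNA a lower level can come from fewer cells of a type or from less RNA per cell, and these cannot be told apart. Probes of different genes bind with different strength, so the order of the members only describes these probe sets.

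**Figure D1:**
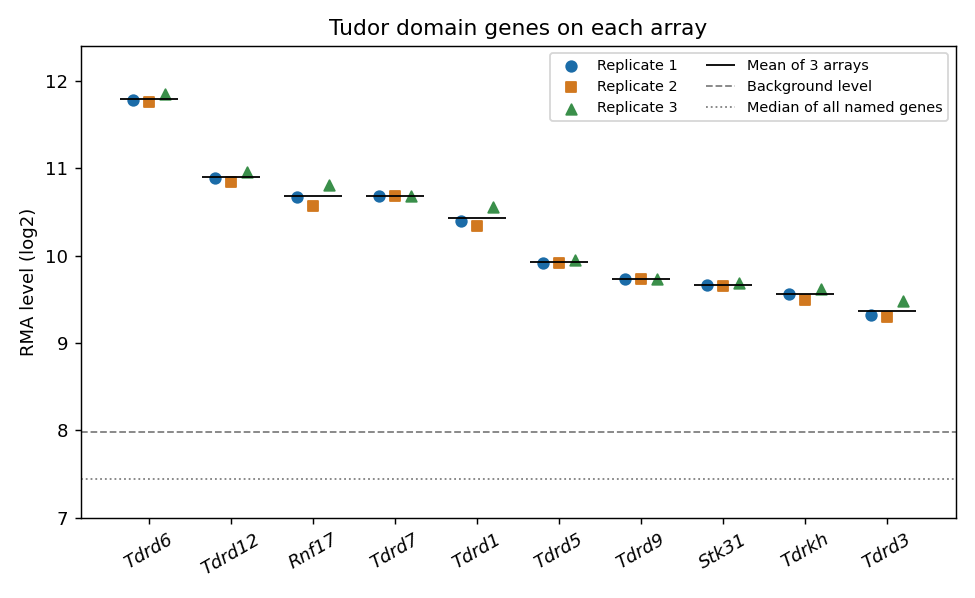
RMA level (log2) of each Tudor gene on the 3 arrays, ordered by mean. Points are arrays, short black lines are means, and the dashed and dotted lines mark the background level of 7.98 and the median of all named genes of 7.45. Every point lies above the background level, from Tdrd6 near 11.80 down to Tdrd3 near 9.37.

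Tdrd6 had the highest level of the members. It encodes a large protein of many Tudor domains that is needed to build the chromatoid body of round spermatids. Its level was 11.78, 11.76 and 11.85 in replicates 1, 2 and 3, a mean of 11.80 ± 0.05 (SD, n = 3). It lay 3.81 above the background level (adjusted p = 3.36e-05, limma) and at the 98.7th percentile of named genes. Tdrd7, another chromatoid body protein, which carries LOTUS domains and is also known for its part in the lens, was at 10.68 on each array. Its values were exactly equal, as they were for 46.0% of all named genes, so its SD of 0 does not mean an absence of error. The gap of 0.90 between Tdrd6 and the next member was the widest between neighbours in the order.

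The members that act in making or amplifying piRNAs spread over 1.34 on the log2 scale. Tdrd12, whose helicase-like protein is needed for piRNAs bound by PIWIL4, was at 10.89, 10.84 and 10.96, a mean of 10.90 ± 0.06 (n = 3; adjusted p = 0.000108, limma). Tdrd1, a Piwi-binding protein of the intermitochondrial cement with a MYND zinc finger, was at 10.39, 10.34 and 10.56, a mean of 10.43 ± 0.11 (n = 3; adjusted p = 0.000502, limma). Tdrd5, which joins a LOTUS domain to a Tudor domain, was at 9.92, 9.92 and 9.95. Tdrd9, an RNA helicase that works with PIWIL4 in fetal germ cells, was at 9.74 on each array. Tdrkh, a KH domain protein that holds Piwi proteins at the mitochondrion while the ends of piRNAs are trimmed, was at 9.56, 9.49 and 9.62. Within this group the ranges over the arrays did not overlap between any neighbours. All 5 of these genes were called above background.

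Rnf17 and Stk31 join a Tudor domain to another kind of domain. Rnf17, a RING finger protein needed for spermatids to mature and for restraining the piRNA amplification cycle in meiosis, was at 10.67, 10.57 and 10.81. Its mean of 10.68 ± 0.12 (n = 3; adjusted p = 0.000431, limma) carried the largest SD of the 10 members. Its range enclosed the value of Tdrd7, and these were the only neighbours of 9 pairs in the order whose ranges overlapped. Stk31, a germ cell protein with a kinase-like domain, was at 9.66, 9.65 and 9.68, a mean of 9.66 ± 0.02 (n = 3; adjusted p = 2.28e-05, limma).

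Tdrd3, which like Tdrd7 is not confined to germ cells, was the lowest member. Its protein reads methylated arginine in many tissues and forms a complex with the topoisomerase TOP3B. It was at 9.32, 9.29 and 9.48 in replicates 1, 2 and 3, a mean of 9.37 ± 0.10 (n = 3), which is 1.38 above the background level (adjusted p = 0.0013, limma). It was the only member to lose its call under any alternative tried. Against the 99th percentile of the background genes, a level of 9.16, it stood 0.20 higher (adjusted p = 0.139, limma). At that level 9 of the 10 members were called, against 19.3% of all named genes. Of 4 genes of its partners, 3 were above background, against 36.6% of all named genes. Top3b was at 9.59 on each array, Fmr1, the fragile X gene, at 9.04 ± 0.06 (n = 3), and its paralog Fxr1 at 11.95, 11.86 and 12.17, while Fxr2 at 7.65 was not called.

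The partners of the Tudor proteins in the piRNA pathway were mostly above background as well. The share of all named genes called was 36.6%, and the lists were chosen with earlier results of these data known. The Piwi genes differed among themselves. Piwil1 was at 10.11, 10.14 and 10.11 and Piwil2 at 10.0005 on each array, and both were called. Piwil4, the Piwi gene of fetal prospermatogonia, was at 6.33 on each array and not called. Of the other piRNA biogenesis genes, Piwi genes included and the members left out, 11 of 14 measured were above background, with a median level of 9.90. The highest was Mael, a piRNA pathway and chromatoid body gene, at 12.36 ± 0.09, followed by Gtsf1, a Piwi-binding zinc finger protein, at 11.69 ± 0.06 (n = 3 each). Mov10l1, the helicase that starts piRNA processing, was at 10.42 ± 0.03, Asz1, a protein of the mitochondrial surface, at 9.95 ± 0.14, and Henmt1, which methylates piRNA ends, at 9.84 ± 0.03 (n = 3 each). Pnldc1, the trimming enzyme that works with TDRKH, was at 7.33 on each array, and the mitochondrial acyltransferase gene Gpat2 was at 7.47. Neither was called, although both lay above the background genes' median of 4.77, so they are not shown to be absent.

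Chromatoid body and germ granule genes were above background in 14 of 16 cases with the members left out, against 36.6% of all named genes. Their median level was 10.02. The RNA helicase genes Ddx4 and Ddx25 were at 12.01 ± 0.13 and 11.80 ± 0.10 (n = 3 each). Ranbp9, a scaffold protein gene, was at 12.19 ± 0.02 and the translation repressor gene Ybx2 at 11.43 on each array. Among general RNA decay genes of the list, Dcp1a was at 8.39 ± 0.09 (n = 3) and Upf1 at 8.04. Ago2 at 7.74 ± 0.05 and Nanos1 at 6.56 ± 0.02 were not called (n = 3 each).

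The gene of the methyltransferase that places the arginine marks read by Tudor domains, and those of its partner and adaptors, were called in 4 of 4 cases. The share of all named genes called was 36.6%. All 4 lay above the background level on every array. Prmt5, the arginine methyltransferase, was at 8.86 on each array. Its partner Wdr77 was at 9.06, 8.81 and 9.06, and the adaptor genes Clns1a and Riok1 averaged 9.97 ± 0.08 and 8.73 ± 0.16 (n = 3 each). With 2 arrays in the fit, fewer passed the test. The count was 2 without replicate 1 or without replicate 3, 3 without replicate 2, and 1 against the 99th percentile level. Of all named genes, 33.4%, 35.6% and 34.2% were called without replicates 1, 2 and 3, and 19.3% at the 99th percentile level. Other Tudor genes that act on RNA were above background in 4 of 4 measured cases, with a median of 8.56, beside the 36.6% of all named genes called. Akap1, a mitochondrial anchor protein with a KH and a Tudor domain like Tdrkh, was at 10.55, 10.55 and 10.54, with replicates 1 and 2 exactly equal. The nuclease gene Snd1 and the spliceosome assembly gene Smn1 were at 8.41 and 8.26 on each array. This count was 1 against the 99th percentile level and 2 with probe sets of several genes added. With those added, 31.6% of 21335 named genes were called.

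**Figure D2:**
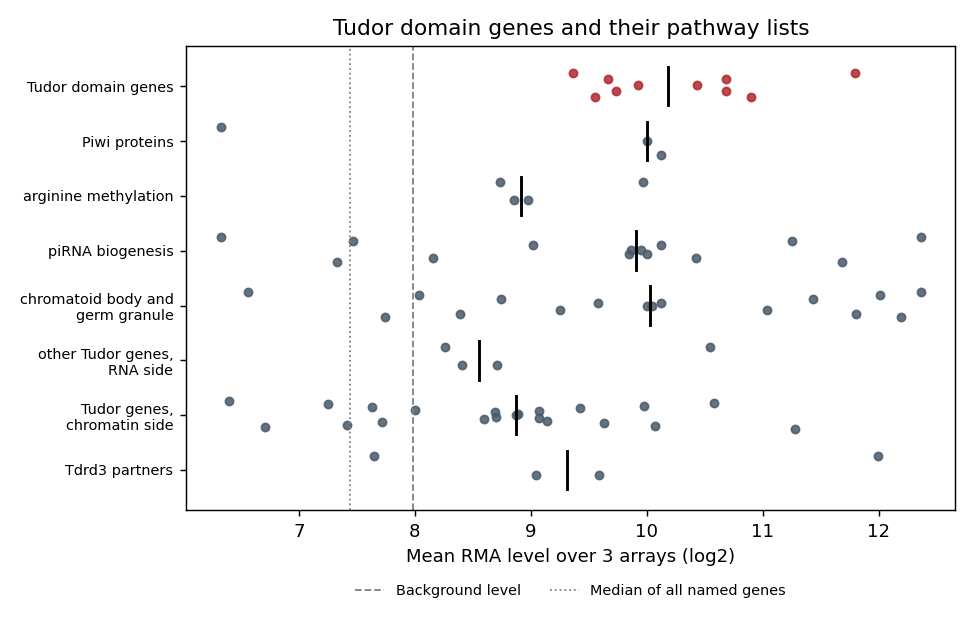
Mean RMA level (log2, 3 arrays) of each gene in the Tudor list and the pathway lists, with the Tudor genes left out of the other rows. Points are genes, black bars are list medians, and dashed and dotted lines mark the background level of 7.98 and the median of all named genes of 7.45. All Tudor genes lie right of the background level, as do all 4 genes of the arginine methylation list and all 4 measured genes of the other RNA-side Tudor list. Each of the remaining lists has at least 1 gene left of it.

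The label of the samples was set against cell type markers, beside the 36.6% of all named genes called. Spermatid markers were above background in 9 of 9 elongating and 8 of 8 round spermatid genes. So were 9 of 9 pachytene spermatocyte and 8 of 10 meiotic prophase genes, with median levels of 11.67 and 11.07. The other 2 of the meiotic list, Meiob at 8.65 ± 0.29 and Prdm9 at 8.23 ± 0.11 (n = 3 each), lay above the level on all arrays. So did 37.6% of all named genes. The call depends on the spread as well as the level, and tied genes have an SD of 0. Gata4, a Sertoli cell marker tied at 7.9974, was called though lower than both. Of spermatogonia genes 3 of 12 were called, below the share of all named genes. Among somatic markers it was 7 of 7 Leydig cell, 7 of 11 Sertoli cell, 5 of 9 peritubular, endothelial and stromal and 3 of 7 blood and immune genes, the last (42.9%) close to that share. Of 10 genes of other tissues 0 were called by limma's adjusted test, 0 had an unadjusted p under 0.05 and 0 lay above the level on all arrays. Most of the members are known to be made in spermatocytes too, and their levels cannot be assigned to spermatids here.

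Across the arrays the levels of the Tudor genes differed little. In the 8 members whose values were not all tied, replicate 3 was the highest array, and in 7 of them replicate 2 was the lowest. In the other, Tdrd5, replicates 1 and 2 were equal. The median difference of replicate 3 minus replicate 2 was 0.11 over the 10 members, from 0 in Tdrd7 and Tdrd9 to 0.23 in Rnf17, 0.22 in Tdrd1 and 0.19 in Tdrd3. Most genes of similar level did the same. Of the untied named genes whose mean lay within the range of the members, 69.3% were highest in replicate 3 and 62.4% were lowest in replicate 2. By the looser measure, 84.2% of them were higher in replicate 3 than in replicate 2. The median difference over all 3456 genes in that range, tied ones included, was 0.03. Of all untied named genes, 45.1% were higher in replicate 3 than in replicate 2. The markers of meiotic prophase had a median difference of 0.20, those of pachytene spermatocytes 0.09, Leydig cells 0.08, elongating spermatids 0.07, round spermatids 0.03, and spermatogonia, Sertoli cells, the stromal list and blood cells 0. For genes of other tissues it was -0.03. The zeros partly reflect tied genes. Among untied genes alone the median difference was 0.13 for the members, 0.21 for meiotic prophase and 0.11 for pachytene spermatocytes. It was 0.14 for the stromal list, 0.12 for blood cells, 0.10 for Leydig cells and 0.0095 for Sertoli cells. For spermatogonia it was -0.01, for other tissues -0.13, and for named genes in the range of the members 0.08. The part that these markers play in the members' differences was not tested. With 1 array a replicate the differences have no test.

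**Figure D3:**
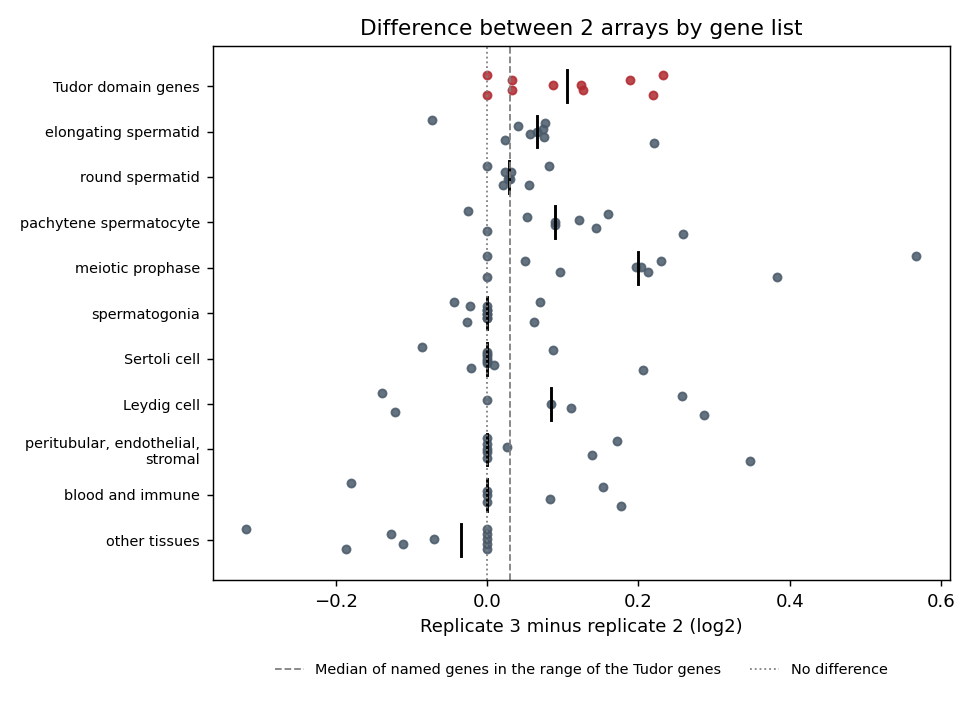
Replicate 3 minus replicate 2 (log2 RMA level) for the Tudor genes and for each list of cell type markers. Points are genes, black bars are medians, the dashed line is the median of 0.03 of named genes in the range of the Tudor genes and the dotted line is 0, where genes tied on the arrays lie. The Tudor genes, with a median of 0.11, lie between the pachytene list at 0.09 and the meiotic prophase list at 0.20. These medians include tied genes. Among untied genes the median was 0.13 for the Tudor genes, 0.11 for the pachytene list and 0.21 for meiotic prophase. It was 0.14 for the stromal list and 0.12 for blood cells.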

How the data were processed

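The members and gene lists were chosen with earlier results of these data known. The authors deposited log2 probe set levels made by RMA in Affymetrix Power Tools (version not given in the sources used here) with an mm9 annotation, per the series' design text. Labelling started from 200 ng of total RNA, per the labels' protocols. The table held 35556 probe sets on 3 arrays of 1 group, with column medians of 7.17, 7.20 and 7.17, and pairs of arrays correlated at r = 0.992 to 0.995 across probe sets. The values were not centred. The number of arrays limits the precision, and no scanner files or detection calls were used here.

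The platform annotation named 1 gene for 21789 probe sets, several for 1621 and none here for 12146. Symbols were updated by Entrez identifier (21698 matched, assembly GRCm38.p6). Probe sets naming only 1 gene were summarised by their median per gene. This left 19938 named genes, the base of the percentiles and, in the main setting, of the shares called and the adjustment. Shares of promoters and of untied genes have the bases named beside them. With shared probe sets added the base was 21335 genes. The genes singled out in the text are the 10 members and those of the fixed lists. Members above background were tested with limma 3.58.1 in R 4.3.3, an intercept model with empirical Bayes variances, one-sided against the background level, with Benjamini-Hochberg adjustment at 0.05. On all arrays 9173 genes were tied, and the prior carried 0.267 degrees of freedom. Other genes, such as Akap1 and Mov10l1, were equal on some but not all arrays. A small SD there does not mean a small error. Adjusted p-values of genes tied on all arrays are not given. Such a gene has an SD of 0 and can be called just above the level, as Upf1 was at 8.04. The test was checked on simulated data, drawn as normal values with gene means and SDs shuffled separately. Such data hold no genes equal on only some arrays, so the check does not cover them. An exact sign-flip permutation test over 3 arrays cannot go below p = 0.125. Protein sequences, planned for a motif count, were not used here. No gene was named by likeness of pattern, since 3 arrays of 1 group hold none.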

Additional observations from a re-analysis of the deposited data

How the results depend on the processing

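Of 255 values recomputed under other settings, 247 kept their direction and their side of the threshold, or stayed within 1.5 times or 1 SD. Some of them could not change. Each member has only 1 probe set of its own and none shared with other genes. Neither the highest probe set nor added shared probe sets could therefore alter its level. Centring the arrays leaves the mean of a gene as it was. The member count was 10 under every alternative except the 99th percentile background, where it was 9 because Tdrd3 was not called. Of the 60 other pathway genes measured, that level called 25 in place of 47, beside 19.3% of all named genes in place of 36.6%. It also called 5 of 21 chromatin-side Tudor genes in place of 14, and 1 of 4 arginine methylation genes in place of 4. Of the 4 other RNA-side Tudor genes measured it called 1 in place of 4. With probe sets of several genes added, which raises the background level, the last count was 2, beside 31.6% of named genes called. Leaving out a replicate gave 2 to 3 arginine methylation genes, 42 to 44 of the 60 other pathway genes and a median member level from 10.14 to 10.21, against 10.18. The share of all named genes called was then 33.4% to 35.6%. The share of all named genes called depended on the level, with 19.3% at the 99th percentile, 43.6% without 4 receptor pseudogenes (an alternative chosen after seeing the data), 55% with olfactory receptors and 65.9% at the background median plus 2. With arrays centred, the median difference of replicate 3 minus replicate 2 was 0.13, against 0.11. No paired analysis was possible because the samples form 1 group.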

Other observations

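Genes whose Tudor domains act on chromatin were above background in 14 of 21 cases, with a median level of 8.88, against 36.6% and 7.45 for all named genes. At the 99th percentile level 5 of the 21 were called, beside 19.3% of all named genes. The highest was Mtf2, a Polycomb accessory gene, at 11.28 ± 0.09, then Sgf29, a reader of histone methylation in acetyltransferase complexes, at 10.58 on each array, and Arid4b at 10.07 ± 0.14 (n = 3 each). The histone methyltransferase gene Setdb1 was at 9.42 ± 0.09 (n = 3) and the spindlin gene Spin1 at 9.63 on each array. The lysine demethylase genes differed, with Kdm4c at 8.70 ± 0.10 (n = 3) called and Kdm4a at 7.63 and Kdm4b at 7.25 not called. The lowest were Phf20 at 6.70 ± 0.03 and the Mtf2 paralog Phf19 at 6.40 ± 0.01 (n = 3 each).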
